A study of Mus musculus with 4 samples.

Results

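The gene Sox9 and the long, gene-poor stretch upstream of it were examined for peaks of ARID1A, a DNA-binding subunit of the SWI/SNF (BAF) chromatin remodelling complexes, in the mouse pancreatic acinar cell line 266-6. The members are the peaks that overlap chr11:110900000-112900000 (build mm9), a region of 2 Mb that runs from just before Kcnj2, near 110.93 Mb, to beyond Sox9, which starts near 112.64 Mb. The region held 4 of the 11220 peaks in the 4 deposited lists, and these merge into 3 sites. ARID1A was mapped by chromatin immunoprecipitation with sequencing (ChIP-seq) in 2 libraries of control cells, given 0.1% bovine serum albumin, and 2 libraries of cells that received epidermal growth factor (EGF) at 40 ng/ml over 8 h. Both groups had been kept without serum for about 14 h beforehand. The cells are 1 established line. The labels call the libraries duplicates and do not say whether each came from its own culture, so a p-value here reflects no more than the scatter among these 4 libraries, possibly technical. The lists hold positions and no expression values, so neither the acinar label nor the level of Sox9 RNA was checked.

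SOX9 is a transcription factor of the SRY-related HMG-box family. In the pancreas it marks progenitor cells of the embryo and duct cells of the adult, is low in mature acinar cells, and comes on when acinar cells take on duct-like features, a change that EGF receptor signalling is known to promote. Sox9 is the textbook case of a gene controlled from afar, since the desert on its upstream side holds enhancers for cartilage, testis and other tissues, and chromosome breaks there in people cause skeletal and sex development disorders without touching the coding sequence. Kcnj2, at the far end, encodes an inwardly rectifying potassium channel. In the RefSeq annotation of another build (GRCm38.p6), used for gene order alone, 7 entries lie between Kcnj2 and Sox9, of which 5 are long non-coding RNAs, 1 is a pseudogene and 1 is a protein-coding model, Gm11677. The long non-coding RNA BC006965 is the last of them before Sox9. On the other side, 9 long non-coding RNAs separate Sox9 from Slc39a11, a zinc transporter gene. No site below was assigned to any of these genes.

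No ARID1A peak was called at Sox9 itself in any of the 4 lists. Within 250 kb of the Sox9 position, on both sides together, every list had 0 peaks. All 3 sites of the region lay upstream, in the desert between Kcnj2 and Sox9. The Sox9 position is known here only to the nearest 10 kb, and all distances carry that rounding.

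**Figure D1:**
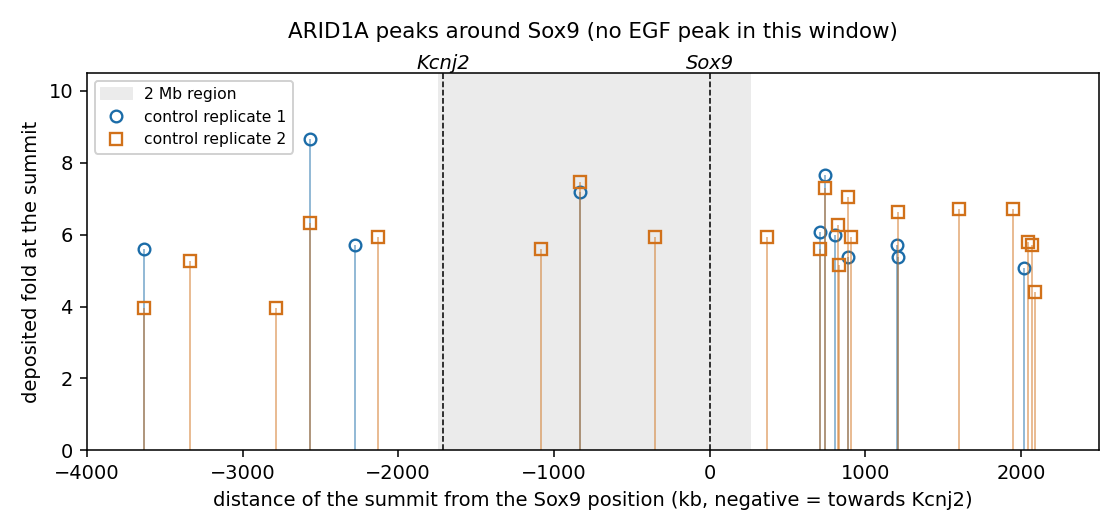
Peaks within 4000 kb upstream and 2500 kb downstream of Sox9, each drawn at the distance of its summit from the Sox9 position (x axis, kb) and at its deposited fold (y axis), with circles for control replicate 1, squares for control replicate 2, and the 2 Mb region shaded. The region shows 1 site with both symbols, 834 kb from Sox9, and 2 sites with a square only; no EGF peak falls in the plotted span.

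The only site called in both control lists lay about 834 kb upstream of Sox9 and 876 kb from Kcnj2, near the middle of the desert. Control replicate 1 had the peak at chr11:111805720-111805933 and control replicate 2 at chr11:111805719-111805989, so the 214 bp of the first lay wholly within the 271 bp of the second. The deposited fold, which is the authors' ratio of ChIP to local input at the peak's highest point, its summit, was 7.18 in control replicate 1. It was 7.47 in control replicate 2, and the mean was 7.33 ± 0.203 (SD, n = 2). Both libraries thus placed this site at nearly the same height. Their summits were 70 bp apart. Over the 210 control replicate 1 peaks shared by the control lists on the rest of chromosome 11, the median summit distance was 76.5 bp, with quartiles of 33.0 and 125.75 bp.

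Whole reads could be recovered for each summit from its deposited fold and −log10 p, and they were 18 in each control library at this site. Relative to the mean ChIP reads over the genome, these were 15.2 times the mean in control replicate 1 and 15.9 times in control replicate 2, or 15.5 ± 0.467 (SD, n = 2). The local input there was at the genome-wide level in both lists, the lowest value the peak caller allows. On the rest of chromosome 11, only 10.4% of control replicate 1 peaks and 8.92% of control replicate 2 peaks sat on input at that level. The fold of the site exceeded that of 82.8% and 86.0% of the other chromosome 11 peaks in control replicates 1 and 2, although its 18 reads equalled the chromosome 11 median in both. By score, which is set by the q-value, the site stood above 67.5% of all peaks of control replicate 1 and 79.2% of those of control replicate 2. The members therefore include no peak from the top of either list: this best one ranked 1137 of 4031 and 1384 of 7112.

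The remaining sites were called in control replicate 2 alone. The site nearest to Sox9 lay 351 kb upstream, at chr11:112288418-112288631, with 16 reads at its summit and a deposited fold of 5.94. The site nearest to Kcnj2 lay 629 kb from it and 1081 kb from Sox9, at chr11:111558988-111559187, with 15 reads and a fold of 5.60. Both were weaker than the shared site, and their score of 43 was just under the list median of 46.0. At 200 bp, the Kcnj2-side site had the smallest width found in any list. Both sat on a local input of 1.30 times the genome-wide level. An empty stretch of 247 kb separated that site from the shared one, and one of 482 kb the shared one from the site nearest to Sox9.

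The bounds at which control replicate 1 was called were low enough to admit sites of this height. Scaled to the depth of that library, their reads would be 15.7 and 16.7, with a −log10 p of 8.00 for each, while the list reaches down to 4.43 and to 11 reads. The comparison assumes the same share of reads at the site in both libraries, and the reads of control replicate 1 there are not in the lists.

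Replicate agreement in the region was like that of the chromosome, as far as 4 peaks can show. The single peak of control replicate 1 was found in control replicate 2; over all chromosomes 71.3% of its peaks were, and on the rest of chromosome 11 it was 210 of 297 (70.7%, exact Clopper-Pearson interval 65.2% to 75.8%). Of the 3 peaks of control replicate 2, 1 was found in control replicate 1 (33.3%, interval 0.840% to 90.6%), against 40.4% over all chromosomes and 212 of 572 (37.1%, interval 33.1% to 41.2%) on the rest of chromosome 11. Among the 41 other chromosome 11 peaks of control replicate 2 with the same score of 43, 13 were found in control replicate 1 (31.7%, interval 18.1% to 48.1%). Peaks that control replicate 1 lacked were also the lower ones across the rest of the chromosome, with a median fold of 5.40 against 6.66 for those it had. All intervals given here, for shares and for counts, have 95% coverage for counting error alone.

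The region was sparse for chromosome 11. Control replicate 1 had 0.500 peaks per Mb in the region and 2.58 per Mb on the rest of the chromosome, and control replicate 2 had 1.50 and 4.97. The region thus held 0.194 and 0.302 times the density of the rest. A stretch of 2 Mb at the density of the rest would hold 5.16 and 9.93 peaks. The exact Poisson interval of the observed count was 0.0253 to 5.57 for the 1 peak of control replicate 1, which includes 5.16, and 0.619 to 8.77 for the 3 peaks of control replicate 2, which does not reach 9.93. Peaks gather along the chromosome and are not independent, so these intervals are too narrow, and no test was made.

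Set against the other 2 Mb windows laid end to end along chromosome 11, the region stood among the emptier ones without being the emptiest. Of the 56 other windows, 7 had fewer peaks in control replicate 1 and 3 had as many; in control replicate 2, 9 had fewer and 2 had as many. The median window held 4.5 and 8.0 peaks, and the fullest 15 and 33. Against the genome the region was less low. Over the 1245 other windows of 2 Mb on all autosomes and the X chromosome, the median was 2.0 and 4.0 peaks and the mean 3.17 and 5.58 in control replicates 1 and 2, so the region lay under both in each list. Fewer peaks than the region were found in 30.5% of these windows in control replicate 1, and as many in 13.6%. In control replicate 2 the shares were 42.7% and 6.10%. The density ratio of the region was 0.457 against these windows and 0.265 against the rest of chromosome 11, for both control lists together.

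**Figure D2:**
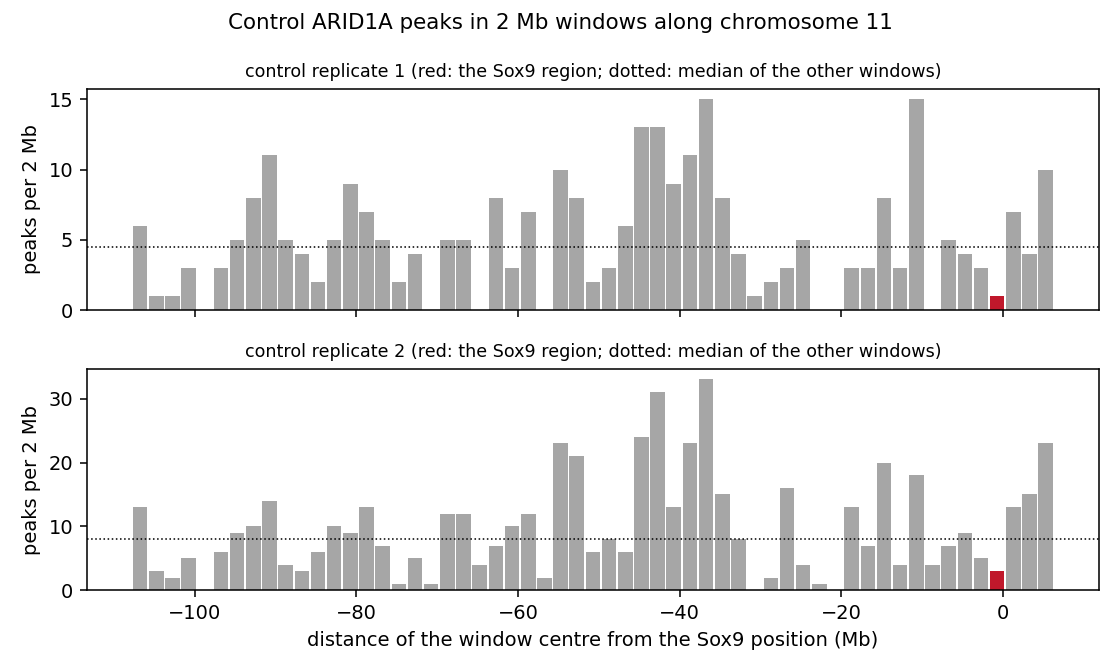
Number of ARID1A peaks per 2 Mb window (y axis) along chromosome 11, by distance of the window centre from the Sox9 position (x axis, Mb), in control replicate 1 (top) and control replicate 2 (bottom). The Sox9 region, in red, holds 1 and 3 peaks, under the dotted medians of 4.5 and 8.0 for the other windows; several grey windows hold fewer.

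The neighbouring windows were fuller. The 3 windows upstream of the region held 3 to 5 peaks in control replicate 1 and 5 to 9 in control replicate 2, and the 3 windows downstream held 4 to 10 and 13 to 23. The region had the fewest peaks of these 7 windows in both lists. The median local input at the peaks of these 6 neighbours was 1.0 to 1.30 times the genome-wide level, the same range as at the members, whereas over the rest of chromosome 11 the medians were 1.48 for control replicate 1 and 1.56 for control replicate 2. Among peaks on input at the genome-wide level alone, a choice made after the data were seen, the region had 1 peak in each control list and the rest of chromosome 11 had 31 and 51, so that the density ratio turned from 0.265 to 1.40. The part of local input in the density along chromosome 11 was not tested.

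Peaks lay on both sides of Sox9 at a distance. Within 500 kb of the Sox9 position, control replicate 1 had none and control replicate 2 had 1 upstream and 1 downstream. Within 1000 kb, control replicate 1 had 1 peak upstream and 4 downstream, and control replicate 2 had 2 upstream and 7 downstream; the difference between the sides was not tested. The nearest downstream peak was 709 kb away in control replicate 1, at chr11:113348998-113349220 with a fold of 6.08, and 366 kb away in control replicate 2, at chr11:113005527-113005903 with a fold of 5.94. Both are outside the region. The peak-free stretch that contains Sox9 was therefore 1543 kb long in control replicate 1 and 717 kb in control replicate 2. It ranked 15th by length among the 297 stretches between chromosome 11 peaks in control replicate 1 and 35th of 574 in control replicate 2, where the medians were 157 and 67.1 kb. Such distances are not rare by length of chromosome: 14.0% and 24.3% of the span of chromosome 11 lay at least as far from a summit as the Sox9 position does.

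**Figure D3:**
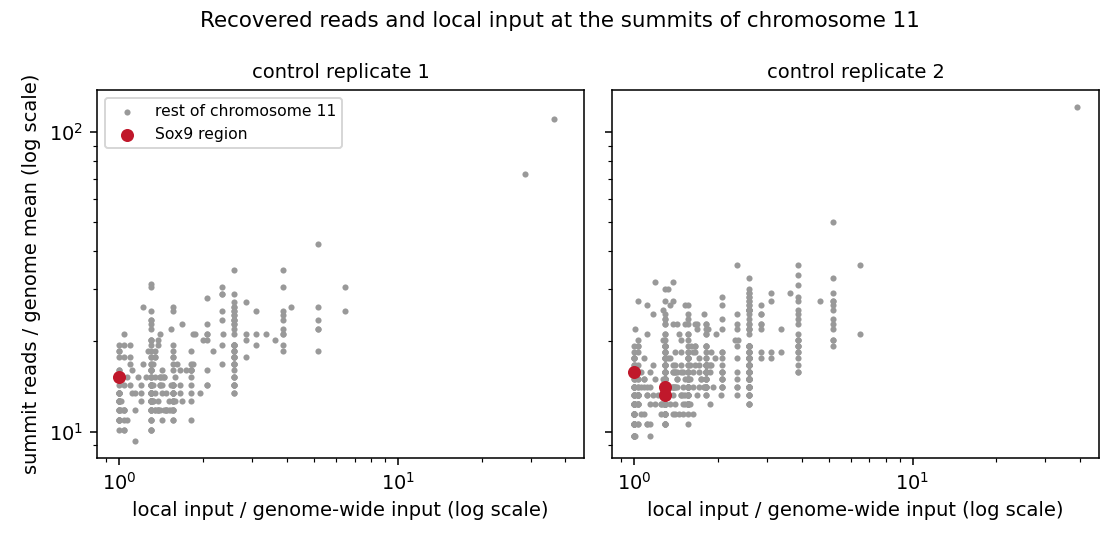
ChIP reads at the summit over the genome mean (y axis, log scale) against local input over the genome-wide input (x axis, log scale) for each chromosome 11 peak of control replicate 1 (left) and control replicate 2 (right), with the Sox9 region in red. The members lie at the low-input side, between 1.0 and 1.30, and at 13.2 to 15.9 times the genome mean, inside the cloud of the other peaks.

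With EGF, no peak was called anywhere in the region. EGF replicates 1 and 2 each had 0 peaks there, while the control lists had 1 and 3. The mean was 0 in the EGF group and 2.0 ± 1.41 in the control group (SD, n = 2 each). The groups did not overlap, and neither did the whole lists. These had 57 and 20 peaks for EGF replicates 1 and 2 and 4031 and 7112 for control replicates 1 and 2. At their density on the rest of chromosome 11, the EGF lists would hold 0.0868 and 0.0174 peaks in 2 Mb. A count of 0 with EGF is therefore not particular to this region. The exact two-sided permutation p over the 6 assignments of the libraries was 0.333, the smallest that 2 libraries against 2 can give. Without control replicate 2 the difference was 1 peak, and without control replicate 1 it was 3 peaks.

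None of the 3 control sites was called with EGF (0 of 3, interval 0% to 70.8%), which is the common case: over all chromosomes 0.743% of the 8206 merged control sites overlapped an EGF peak, and on the rest of chromosome 11 it was 5 of 652. Of control replicate 1 peaks found in both control lists, 2.05% overlapped an EGF peak over all chromosomes, and the site 834 kb upstream of Sox9 was not among them. EGF replicate 1 had 5 peaks on chromosome 11 and EGF replicate 2 had 1. The one nearest to Sox9, at chr11:74860537-74860745 in EGF replicate 1, was 37.8 Mb away.

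At the settings of the EGF lists, the 2 weaker sites would fall under the weakest peaks called there, and the shared site would lie close to them. Falling under is the common case: 33.0% and 34.0% of all peaks of control replicates 1 and 2 would reach the smallest −log10 p called in EGF replicate 1, and 20.6% and 21.5% that of EGF replicate 2. These shares are above the 0.743% of merged control sites that were called with EGF. The measures are unlike, however, and their difference was not tested. Each share takes the peaks of 1 control list against the smallest −log10 p called in 1 EGF list. The 0.743% takes the merged sites of both control lists and counts overlap with a peak of either EGF list. If a site kept its share of reads, the depth and input of the EGF lists would give the site 351 kb from Sox9 a −log10 p of 6.32 and the site on the Kcnj2 side 5.23, in EGF replicate 1 and EGF replicate 2 alike. The smallest values called in those lists were 7.07 and 8.00. The shared site would reach 7.17 from the reads of control replicate 1, above the first of these and below the second, and 8.42 from those of control replicate 2, above both. Its expected reads, 16.1 to 19.5, stayed under the 21 reads that were the fewest seen at a called summit in each EGF list. Those 21 reads, like the smallest −log10 p of each EGF list, are the lowest observed and not a known bound of the peak caller. The smallest −log10 q was 2.07 and 2.47 in EGF replicates 1 and 2, and 1.31 and 1.38 in control replicates 1 and 2. Whether the sites would have been called in the EGF lists was not tested. The lists hold no EGF reads at the 3 sites, so loss of ARID1A there was not tested. The input behind the lists, 0.771 reads per 200 bp for the control lists and 0.506 for the EGF lists, differs with the treatment and cannot be told apart from it.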

How the data were processed

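Per the submitters' processing notes, MACS2 2.1.1.20160309.0 and Bowtie2 2.3.4.2 were used with build mm9, along with deepTools 3.0.2 and SAMtools. Options: not given in the sources used here. For each library the authors deposited 1 peak list, with 57 and 20 peaks for EGF replicates 1 and 2 and 4031 and 7112 for control replicates 1 and 2. Each deposited peak carries a score (10 times −log10 q, rounded down), a fold (ratio of ChIP to local input at the summit, each with 1 added), −log10 p, −log10 q and the summit position. Positions are counted from 1.

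Whole reads and local input were recovered from the deposited fold and −log10 p with 1 scaling factor per list. A read length of 200 bp was assumed. A solution within 2e-04 was found for 100% of peaks, and each member had exactly 1. The recovered depth was 1.06 to 1.23 ChIP reads per 200 bp of genome. The recovery was tested on simulated lists drawn with the same formulas. That checks the calculation and not whether the deposited values follow those formulas. Overlap meant at least 1 bp. The rest of chromosome 11 was taken from its first to its last control peak, 115 Mb without the region. All sites of the region are named. The region, lists and tests were chosen with earlier results of these data known. No mm9 sequence or annotation was used. Python 3.11.15, numpy 2.4.6 and scipy 1.17.1 were used.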

Additional observations from a re-analysis of the deposited data

How the results depend on the processing

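Of 26 alternative values for 5 results, 24 stayed within the spread between the control lists, within the interval, or at the same count and direction, and 2 moved; both concern the density of the region over that of the rest of chromosome 11, which was 0.265 for the control lists together. It was 0.457 against all other 2 Mb windows of the genome. Counting only peaks on input at the genome-wide level, it was 1.40, so the direction turned from sparser to denser than the rest of chromosome 11. That value has no interval and rests on 1 member peak per list, at the shared site. Both of these were chosen after the data were seen, and the cause was not tested. Fixed earlier were 3 others, which gave 0.279 with a q of at most 0.005, 0.282 with peaks within 500 bp merged and 0.310 between Kcnj2 and Sox9 alone. With a control library left out, the density ratio ran from 0.194 to 0.302. Those values also set the spread between the control lists, so they are no separate check. The control sites called with EGF stayed at 0. With the nearest EGF peak 37.8 Mb from Sox9, none of those alternatives could change it, so they add no support to the 24. The shares found in the other control list did not change with 50% of both peaks shared, summits within 250 bp, or the stricter q. Leaving out 1 library at a time, the difference in peak number was between −3 and −1, a value with no test. With the replicate number as a block it was −2 (exact permutation p = 0.5, as low as 2 pairs allow). The pairing comes from the number alone, and 0 peaks in both EGF lists leave no deviations to compare. With 3 sites, these counts cannot show stability. The lists name only called peaks, so lower occupancy anywhere in the region is not measured.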
